A study of Homo sapiens with 15 samples.

Results

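The genes described here carry out fatty acid oxidation in mitochondria and peroxisomes, build the peroxisome, or belong to the peroxisome proliferator-activated receptor (PPAR) pathway. The set holds 45 genes, listed by symbol and matched to the gene identifiers of the deposited table. All 45 matched, out of 60664 identifiers, and all 45 reached at least 1 TPM (an abundance corrected for transcript length and scaled to the same total in each library) in at least 3 of the 15 libraries, as did 14899 genes in all. They were measured by RNA-seq of poly(A) RNA from HCT116, a human colorectal carcinoma line whose genotype the labels give as WT. Cells were exposed for 72 h at 0.0154 mg/mL to one of 3 extracts of olive oil production waste (OPWP), named for the region it came from as AE (Apulia), TE (Tuscany) and SE (Sicily), or to hydroxytyrosol (HTyr), a phenolic alcohol of the olive, or were left untreated. Each of the 5 groups has 3 libraries from this single line. The labels call them biological replicates without saying how the cultures were made, so p-values here cover only the spread between the samples. The short codes in the titles of 2 groups, TE and SE, name the other region than their descriptions do. The descriptions and the study's own sample columns were followed, and were the title codes right, TE and SE would change places.

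In fatty acid oxidation, a fatty acid is first joined to coenzyme A, carried into the mitochondrial matrix on carnitine and shortened in rounds of dehydrogenation, hydration, a further dehydrogenation and cleavage, while electrons pass through a flavoprotein to the respiratory chain. Peroxisomes shorten very long and branched chains with enzymes of their own, which are imported after translation by proteins called peroxins. PPARs are nuclear receptors that bind fatty acids or their derivatives, pair with a retinoid X receptor and switch on many genes of lipid handling. PPARα is best known from liver, while PPARγ is best known from fat cells and is also abundant in colon epithelium.

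The total of each library was 999999.51 to 1000000.95 TPM by construction, so TPM keep no sequencing depth, and neither the depth nor a counting error is known. Between 13653 and 14034 genes reached 1 TPM in a library, and mitochondrially encoded transcripts took 15.63% to 21.51% of the TPM. All 7 epithelial markers checked were expressed. Their summed level was 2528 to 3484 TPM in the 12 treated libraries and 4641 to 4735 TPM in the untreated ones. Of 6 fibroblast markers 1 reached 1 TPM in 3 libraries, of 5 immune markers 1 (CD68), of 3 endothelial markers 0 and of 5 adipocyte markers 0, with FABP4 and LEP listed at 0 in every library. The summed immune markers, nearly all CD68, came to 1.67 to 6.88 TPM in treated and 16.47 to 17.39 TPM in untreated libraries. Of 4 hepatocyte markers 2 reached it (SERPINA1 and TF) and 2 did not (ALB and APOA2), with a summed level of 3.99 to 8.48 TPM in treated and 8.87 to 12.74 TPM in untreated libraries. The part of these shifts in the results that follow was not tested.

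The median of the members' mean TPM was 23.3, against 12.4 over all genes tested. PDK4 was lowest with a mean of 1.2 TPM and ACADVL highest with 253.6 TPM. Against untreated cells, 6 members were called higher and 1 lower with AE (background over all genes tested 10.7% and 5.81%), 5 and 1 with TE (background 7.46% and 5.26%), 14 and 3 with SE (background 17.0% and 11.0%), and 3 and 2 with HTyr (background 7.80% and 8.45%). A call is an adjusted p under 0.05 from limma over all genes tested and a change of over 1.5-fold on the log2(TPM + 0.5) scale. As shares of the 45 members these are 13.3% and 2.22% with AE, 11.1% and 2.22% with TE, 31.1% and 6.67% with SE, and 6.67% and 4.44% with HTyr. The share called higher lay above the background with SE and near it with AE, TE and HTyr, while the share called lower lay below the background with all 4 treatments. All 4 comparisons share the 3 untreated libraries. Under median-ratio scaling of the libraries the counts higher and lower were 3 and 3 with AE, 3 and 2 with TE, 12 and 3 with SE, and 5 and 2 with HTyr.

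**Figure D1:**
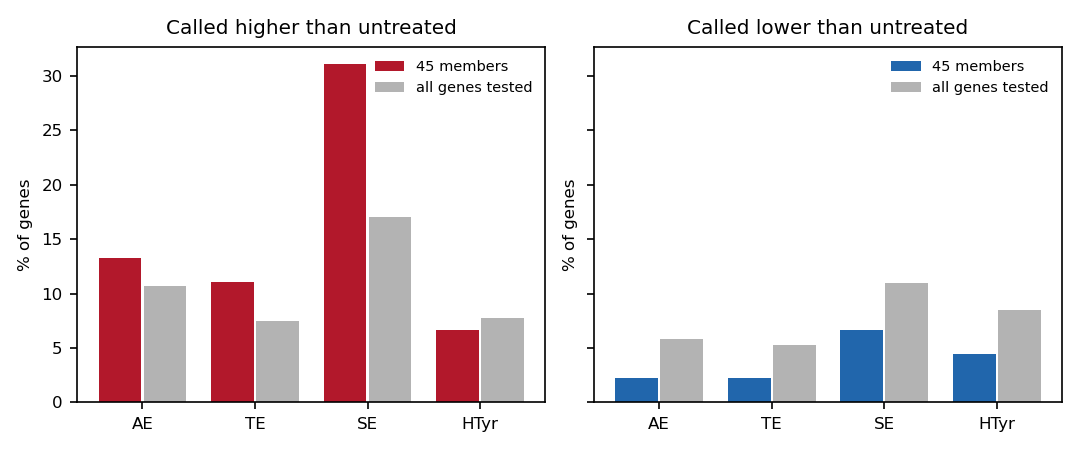
The share of the 45 members (coloured bars) and of all genes tested (grey bars), in percent, called higher (left) or lower (right) in AE, TE, SE and HTyr cells than in untreated cells. With SE 31.1% of the members were called higher, against 17.0% of all genes, and in the other treatments the bars of the members and of all genes lie closer together.

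Most members shifted by less than 1.5-fold. In the mean of the 4 treatments, 8 members were called higher and 3 lower (background 10.4% and 7.43%), and without the fold threshold 25 members had higher and 6 had lower levels at an adjusted p under 0.05 (background 28.6% and 21.3%). With median-ratio scaling these 2 counts were 21 and 7 (all genes 25.3% and 25.1%). The median log2 fold change of the members was 0.21 (AE), 0.17 (TE), 0.41 (SE) and 0.11 (HTyr), beside medians over all genes tested of 0.09, 0.05, 0.09 and -0.04. Of the 45 members, 12 had all 12 treated libraries above all 3 untreated ones (26.7%, background 15.3%), and 1, PPARG, had all 12 below (2.22%, background 11.8%). ACSL5, AMACR and CPT2, 3 of the 45 members, were called higher with all 4 treatments (background 4.66%). AMACR passed the filter only with the treated libraries, so its rise is a description only. The counts of members called higher or lying above untreated cells include it. No member was called lower with all 4 (background 3.19%), although PPARG reached an adjusted p under 0.05 in each (limma, 0.000368 with TE, where the fall stayed under 1.5-fold). Under either scaling tried, median-ratio or quantile, PPARG gained the TE call and was called lower with all 4. At least 1 treatment gave a call in 18 of the 45 members (background 33.9%) and none did in the other 27. In no member did 2 treatments give calls in opposite directions. This was not counted over all genes, and the 4 comparisons share the 3 untreated libraries, so it is not a result about the members.

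The stretches upstream of these 4 genes are printed because ACSL5, AMACR and CPT2 were called with every treatment and PPARG was the member that lay apart below. They are RefSeq promoter windows on GRCh38.p14, 5′ to 3′ on the strand of the gene, beginning 250 bases before a transcript start and ending where an annotated exon begins or at the start. They cover chr1:53196574-53196791 (+ strand) for CPT2, chr10:112375018-112375234 (+ strand) for ACSL5, chr5:34008105-34008300 (- strand) for AMACR and chr3:12287118-12287367 (+ strand) for PPARG. The ACSL5 stretch lies inside the gene as GENCODE 44 places it, before a transcript start that is not its first. Capitals mark AGGTCA, the half-site that PPARs and other nuclear receptors recognise.
CPT2: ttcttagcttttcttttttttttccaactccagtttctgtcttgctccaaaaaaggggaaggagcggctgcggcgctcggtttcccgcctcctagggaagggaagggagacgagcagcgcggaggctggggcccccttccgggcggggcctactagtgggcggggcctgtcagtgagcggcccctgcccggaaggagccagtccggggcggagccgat
ACSL5: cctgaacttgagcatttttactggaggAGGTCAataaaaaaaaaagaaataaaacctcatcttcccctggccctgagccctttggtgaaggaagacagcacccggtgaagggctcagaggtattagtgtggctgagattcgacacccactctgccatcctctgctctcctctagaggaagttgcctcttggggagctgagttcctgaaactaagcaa
AMACR: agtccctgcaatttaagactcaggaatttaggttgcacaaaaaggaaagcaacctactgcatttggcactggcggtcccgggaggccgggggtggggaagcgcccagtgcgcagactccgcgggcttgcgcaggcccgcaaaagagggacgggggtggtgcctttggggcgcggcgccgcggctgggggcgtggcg
PPARG: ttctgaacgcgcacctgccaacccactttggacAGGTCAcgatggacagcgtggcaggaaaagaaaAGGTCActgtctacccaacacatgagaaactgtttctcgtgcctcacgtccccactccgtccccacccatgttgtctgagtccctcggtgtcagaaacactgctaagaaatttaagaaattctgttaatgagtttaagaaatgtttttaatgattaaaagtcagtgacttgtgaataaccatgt
Windows were found for 40 of the 45 members, 63 windows in all. DECR1, ETFDH, ACAA1, PEX2 and PEX14 were not matched. Searched on both strands over the 250 bases before the start, AGGTCA occurred in 4 windows of 2 members, ACSL5 and PPARG, which is 6.35% of the members' windows, against 12.1% of all 35116 windows. The PPARG windows beginning at 12288810 and 12288820 overlap and hold the same AGGTCA, counted once in each. Windows are therefore not independent. In the stretches shown, the ACSL5 match lay 223 to 218 bases before the start and the PPARG matches 217 to 212 and 184 to 179 bases before it. The direct repeat of the half-site with 1 base between, AGGTCANAGGTCA, which contains it and is the classic PPAR element, was in 0 member windows and in 0.0171% of all windows. The extended half-site TCAAGGTCA, which also contains it, was in 0 member windows (0.319% of all). A match only says that these letters stand there.

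The carnitine shuttle brings long chains into mitochondria. CPT2 (ENSG00000157184, chromosome 1, 53196792 to 53214197, GENCODE 44 on GRCh38) re-forms acyl-CoA on the inner membrane. It stood at 10.67, 12.07 and 10.86 TPM in AE libraries, 10.60, 10.17 and 11.37 in TE libraries, 12.98, 12.41 and 12.65 in SE libraries and 10.95, 11.48 and 11.00 in HTyr libraries, against 4.77, 7.38 and 5.90 TPM in untreated libraries. Every treated library lay above every untreated one. Its log2 fold changes were 0.86 (AE), 0.80 (TE), 1.04 (SE) and 0.86 (HTyr) (standard error of each 0.12, adjusted p from limma 4.97e-06 to 0.000143), about 1.74-fold to 2.05-fold higher, and the call held under every alternative run. CPT2 shares exon sequence with CZIB on the opposite strand, which had 35.7 to 49.2 TPM in treated and 43.3 to 44.8 TPM in untreated libraries, and without knowing whether strand was used the reads of the shared stretch cannot be told apart. CPT1A, on the outer membrane, controls the entry step. It stood at 24.18, 21.19 and 22.85 TPM in AE libraries, 20.47, 21.39 and 22.44 in TE libraries, 30.46, 30.51 and 30.57 in SE libraries and 22.24, 23.89 and 25.46 in HTyr libraries, against 16.20, 20.94 and 16.79 TPM in untreated libraries. The SE libraries were the highest, and the TE range overlapped that of untreated cells. CPT1A was called higher with SE (log2 fold change 0.76, standard error 0.09, adjusted p from limma 9.43e-06), with 0.34, 0.26 and 0.41 and no call with AE, TE and HTyr. The translocase SLC25A20 that exchanges acylcarnitine for carnitine was at 5.58 to 10.0 TPM in treated and 5.15 to 5.57 TPM in untreated libraries, and its SE call (0.59) was lost under both scalings, with a pseudocount of 1, without the second SE library and without the first or second untreated library.

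Of the acyl-CoA dehydrogenases, which take the first step of each round, none was called in the mean of the 4 treatments. ACADVL, for very long chains, was the most abundant member and moved by at most 0.15 in log2 with any treatment. ACADM, for medium chains, was called with SE only (0.74, adjusted p 1.26e-05, limma). It stood at 53.74, 53.22 and 55.65 TPM in AE libraries, 51.63, 50.45 and 44.22 in TE libraries, 66.91, 63.82 and 65.79 in SE libraries and 46.96, 37.56 and 44.32 in HTyr libraries, against 34.46, 42.07 and 40.88 TPM in untreated libraries. SE libraries were the highest, AE and TE libraries also lay above the untreated ones, and HTyr libraries overlapped them. ACADM shares exon sequence on its own strand with RABGGTB. RABGGTB had 188 to 307 TPM in treated and 349 to 395 TPM in untreated libraries, lower in every treated library. How reads were split between them is uncertain, and the part of RABGGTB in the ACADM values was not tested. ACADS, for short chains, was called with TE only (0.62, adjusted p 0.0264), a call that 8 of 24 alternatives ended, among them both scalings and the fits without the first or the third TE library or without any 1 untreated library. ACADSB, for branched short chains from isoleucine, was lower at an adjusted p under 0.05 in the mean of the 4 (-0.32, adjusted p 0.0199) without reaching 1.5-fold.

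Most genes of the later mitochondrial steps differed by less than 1.5-fold. The 6 genes of hydration, dehydrogenation and thiolysis summed to 290.2 to 296.6 TPM in AE libraries, 274 to 289 TPM in TE libraries, 326 to 358 TPM in SE libraries and 276 to 286 TPM in HTyr libraries, against 230.5 to 234.5 TPM in untreated cells, so no treated library overlapped the untreated ones. All 6 had positive log2 fold changes in the mean of the 4 treatments, 2 of them called. ECHS1 (ENSG00000127884, chromosome 10, 133362485 to 133373354) is the short-chain enoyl-CoA hydratase. It stood at 44.67, 45.17 and 45.29 TPM in AE libraries, 45.67, 44.01 and 44.89 in TE libraries, 51.76, 57.57 and 65.07 in SE libraries and 39.38, 47.69 and 44.83 in HTyr libraries, against 29.18, 29.51 and 31.76 TPM in untreated libraries. Its changes on the log2 scale were 0.57 (AE), 0.57 (TE), 0.93 (SE) and 0.53 (HTyr), and 0.65 in their mean (standard error 0.06, adjusted p from limma 2.14e-06), and SE alone gave a call. HSD17B10 (ENSG00000072506, chromosome X, 53431258 to 53434370) is a dehydrogenase of branched-chain and short-chain acyl-CoA and also a subunit of mitochondrial RNase P. It stood at 74.55, 75.97 and 74.15 TPM in AE libraries, 74.73, 70.30 and 72.70 in TE libraries, 83.19, 83.12 and 94.27 in SE libraries and 68.73, 79.20 and 73.19 in HTyr libraries, against 48.15, 49.93 and 49.62 TPM in untreated libraries. In log2 it changed by 0.60 (AE), 0.56 (TE), 0.81 (SE) and 0.58 (HTyr), and 0.64 in their mean (standard error 0.05, adjusted p from limma 1.87e-07), with calls for AE and SE. Both genes lay above untreated cells in 12 of 12 treated libraries. HADHA and HADHB, the subunits of the trifunctional protein, HADH and the thiolase ACAA2 had changes of 0.13 to 0.24 in the mean of the 4 and none was called. Under both scalings HSD17B10 dropped just under 1.5-fold in that mean (0.57 under quantile normalization) and with AE, where it also did so without the first untreated library.

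**Figure D2:**
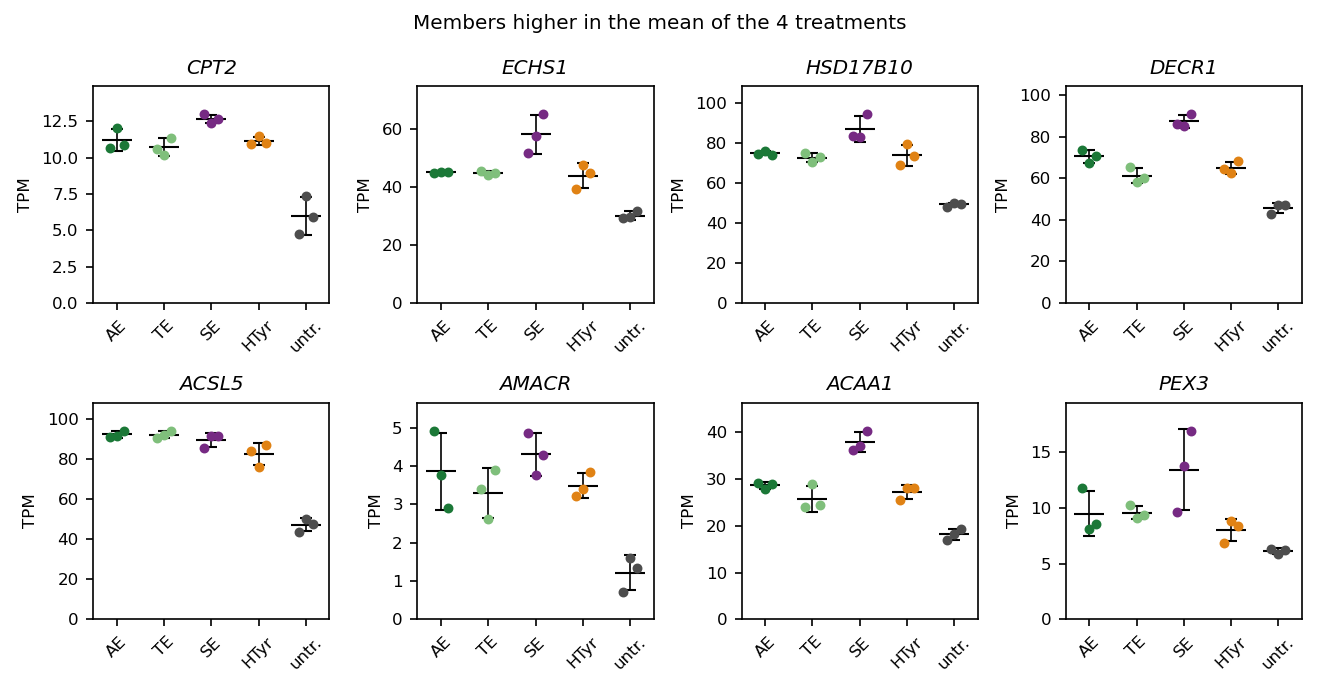
TPM of the 8 members called higher in the mean of the 4 treatments, in each library (points) of AE, TE, SE, HTyr and untreated cells, with group means and SD (n = 3 libraries each). In all 8 genes the 12 treated libraries lie above the 3 untreated ones, and in all but ACSL5 the SE mean is the highest.

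Unsaturated chains need auxiliary enzymes. DECR1 (ENSG00000104325, chromosome 8, 90001405 to 90053633), the mitochondrial dienoyl-CoA reductase, stood at 73.86, 67.20 and 70.59 TPM in AE libraries, 65.32, 58.24 and 60.26 in TE libraries, 86.27, 85.09 and 90.85 in SE libraries and 64.50, 62.55 and 68.18 in HTyr libraries, against 42.94, 47.31 and 47.05 TPM in untreated libraries. Relative to untreated cells the log2 change was 0.62 (AE), 0.42 (TE), 0.93 (SE) and 0.50 (HTyr), and 0.62 in their mean (standard error 0.05, adjusted p from limma 2.52e-07), with calls for AE and SE. The calls for AE and for the mean ended under both scalings and without the first untreated library (0.56 in the mean under quantile normalization). The enoyl-CoA isomerases ECI1 and ECI2 moved apart with SE. ECI2 had 68.3 to 76.6 TPM in SE libraries against 47.0 to 51.7 TPM in untreated ones (0.55, adjusted p 1.39e-05, under 1.5-fold). ECI1 had 42.1 to 60.2 TPM in SE libraries against 65.8 to 82.4 TPM in untreated ones (-0.47, adjusted p 0.0276, under 1.5-fold). Among the genes that pass electrons on, ETFA and ETFB, the subunits of the electron transfer flavoprotein, were higher at an adjusted p under 0.05 in the mean of the 4 (0.22 in both) and ETFDH, its ubiquinone oxidoreductase, was lower (-0.35, adjusted p 0.0159). None of the 3 was called with any treatment.

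With the deposited values, peroxisomal oxidation held the largest rise of the set, that of AMACR. AMACR (ENSG00000242110, chromosome 5, 33986165 to 34008104) converts branched-chain acyl-CoA to the form that peroxisomal oxidases accept. It stood at 4.92, 3.76 and 2.90 TPM in AE libraries, 3.39, 2.62 and 3.90 in TE libraries, 4.87, 3.76 and 4.29 in SE libraries and 3.22, 3.40 and 3.85 in HTyr libraries, against 0.73, 1.61 and 1.33 TPM in untreated libraries. All treated libraries were above the untreated ones, at low levels. AMACR reached 1 TPM in 14 of 15 libraries, all but the first untreated one. It passed the filter only with the treated libraries, so its rise is a description only. On the log2 scale the differences came to 1.35 (AE), 1.16 (TE), 1.51 (SE) and 1.24 (HTyr) (standard error of each 0.22). A read-through transcript, C1QTNF3-AMACR, shares its exons and was at 0 to 0.71 TPM with AE, TE and HTyr, 0.78 to 1.13 TPM with SE and 0.75 to 0.89 TPM in untreated cells. With both summed, an alternative chosen after seeing the data, the log2 fold changes were 0.94 (AE), 0.74 (TE), 1.20 (SE) and 0.66 (HTyr), all still called (adjusted p 2.78e-05 to 0.00498, limma). The summed rise was the largest of the set with SE only. In the mean of the 4 treatments it was 0.885, against 0.908 for ACSL5. ACAA1 (ENSG00000060971, chromosome 3, 38103129 to 38137242), the peroxisomal thiolase, stood at 28.99, 27.79 and 28.91 TPM in AE libraries, 23.88, 28.95 and 24.28 in TE libraries, 36.15, 36.89 and 40.18 in SE libraries and 25.54, 28.01 and 27.90 in HTyr libraries, against 16.94, 18.22 and 19.25 TPM in untreated libraries. Its log2 fold changes were 0.64 (AE), 0.49 (TE), 1.04 (SE) and 0.57 (HTyr), and 0.68 in their mean (standard error 0.06, adjusted p from limma 1.01e-06), with calls for AE and SE, of which the AE call ended under both scalings.

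ABCD3, a transporter of long-chain acyl-CoA in the peroxisomal membrane, stood at 27.38, 28.92 and 27.68 TPM in AE libraries, 25.73, 25.01 and 25.41 in TE libraries, 35.45, 42.31 and 39.51 in SE libraries and 23.74, 22.72 and 26.60 in HTyr libraries, against 20.21, 20.64 and 22.40 TPM in untreated libraries. Its treated libraries did not overlap the untreated ones, and it was called with SE only (0.87, adjusted p 4.15e-07). SCP2, a sterol carrier protein and thiolase, was also called with SE only (0.64, adjusted p 1.86e-05), with 85.4 to 98.1 TPM in SE libraries against 55.5 to 62.2 TPM in untreated ones, and lost the call under both scalings. The bifunctional enzyme HSD17B4 was at 79.2 to 89.5 TPM in SE libraries and 51.9 to 74.4 TPM in the other treated libraries, against 52.8 to 73.1 TPM in untreated ones (0.41 with SE, adjusted p 0.00324, under 1.5-fold). ACOX3, an oxidase for branched chains, stood at 8.81, 8.38 and 8.57 TPM in AE libraries, 9.52, 8.84 and 8.75 in TE libraries, 7.89, 7.61 and 6.93 in SE libraries and 10.66, 8.31 and 7.87 in HTyr libraries, against 11.66, 10.77 and 7.38 TPM in untreated libraries. The untreated libraries spanned the AE, TE and HTyr ranges, and no treatment gave a call (lowest log2 fold change -0.36, with SE).

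Long-chain acyl-CoA synthetases charge fatty acids with coenzyme A for oxidation or for lipid synthesis. ACSL5 (ENSG00000197142, chromosome 10, 112374116 to 112428379), abundant in intestinal epithelium, stood at 91.18, 91.70 and 94.18 TPM in AE libraries, 90.36, 92.28 and 94.02 in TE libraries, 85.36, 91.76 and 91.49 in SE libraries and 84.02, 76.35 and 87.07 in HTyr libraries, against 43.83, 50.23 and 47.76 TPM in untreated libraries. The lowest treated library, of HTyr, lay well above the highest untreated one. In log2 the rises were 0.96 (AE), 0.96 (TE), 0.92 (SE) and 0.80 (HTyr) (standard error of each 0.06, adjusted p from limma 3.52e-08 to 6.4e-07). ZDHHC6, which overlaps ACSL5 exons on the opposite strand, had 54.7 to 99.9 TPM in treated and 49.1 to 59.9 TPM in untreated libraries, ranges that overlapped, and its part in the ACSL5 reads was not tested. With the 4 treatments averaged, ACSL5 gave the smallest adjusted p of any member (0.91, 7.49e-09). ACSL3, of the endoplasmic reticulum and lipid droplets, stood at 57.26, 55.04 and 57.49 TPM in AE libraries, 50.48, 54.71 and 49.53 in TE libraries, 78.43, 77.94 and 76.45 in SE libraries and 45.82, 42.07 and 48.12 in HTyr libraries, against 42.52, 45.44 and 48.06 TPM in untreated libraries. The SE libraries were the highest, the HTyr range overlapped that of untreated cells, and the SE call was the only one (0.77, adjusted p 2.38e-07). ACSL1 and ACSL4 gave no call, with log2 fold changes of -0.27 to 0.23.

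Among the 9 peroxins, PEX3 was the only one called. PEX3 (ENSG00000034693, chromosome 6, 143450805 to 143490616) anchors PEX19 so that membrane proteins can be inserted. It stood at 11.77, 8.13 and 8.51 TPM in AE libraries, 10.23, 9.13 and 9.38 in TE libraries, 9.61, 13.79 and 16.90 in SE libraries and 6.89, 8.78 and 8.33 in HTyr libraries, against 6.33, 5.85 and 6.22 TPM in untreated libraries. All treated libraries lay above the untreated ones, with a wide spread between the SE libraries. Its changes on the log2 scale were 0.57 (AE), 0.60 (TE), 1.04 (SE) and 0.35 (HTyr), and 0.64 in their mean (standard error 0.14, adjusted p from limma 0.00165), with calls for TE and SE, and the TE call ended under both scalings, with a pseudocount of 1 and without the first TE or the second untreated library. The docking factors PEX13 and PEX14, the import receptors PEX5 and PEX7, the membrane protein receptors PEX16 and PEX19, the ubiquitin ligase PEX2 and the ATPase PEX6 ranged between -0.46 (PEX6 with SE) and 0.57 (PEX16 with AE). PEX13 had 9.64 to 14.5 TPM in treated and 8.20 to 9.66 TPM in untreated libraries (0.42 in the mean of the 4, adjusted p 0.00129, under 1.5-fold). PEX6 had 8.50 to 9.49 TPM with SE, and each SE library lay below each untreated one.

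**Figure D3:**
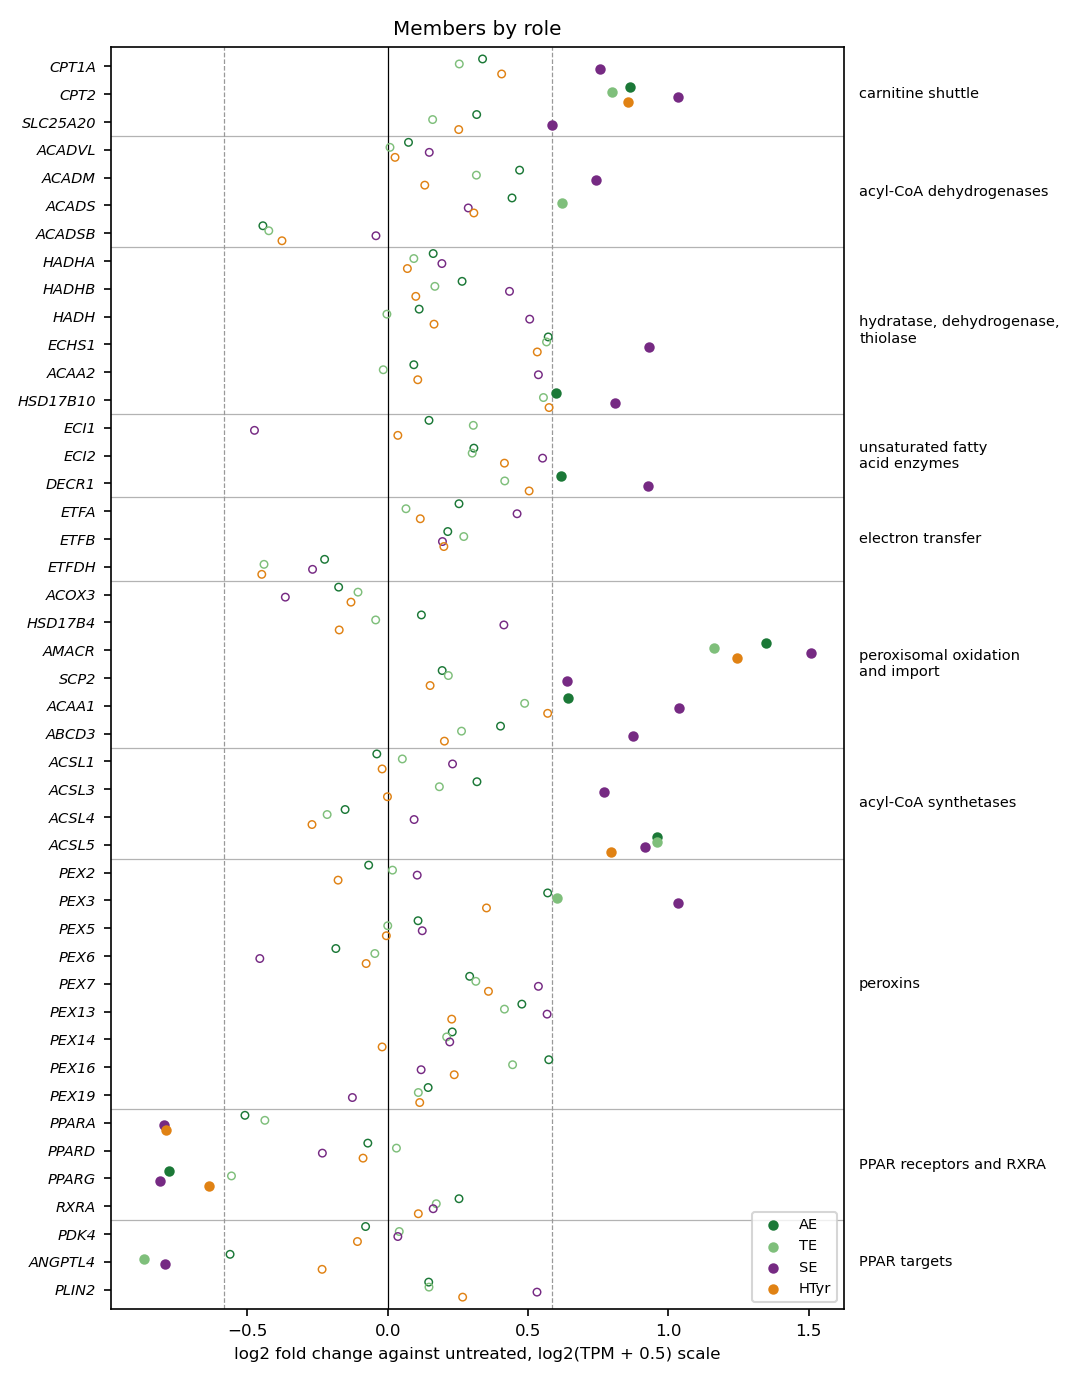
Log2 fold change of all 45 members in AE, TE, SE and HTyr cells relative to untreated cells (log2(TPM + 0.5) scale), grouped by role. Filled points are calls, open points are not, and dashed lines mark 1.5-fold. AMACR lies farthest right in each treatment, PPARG and PPARA lie left of 0 in all 4, and SE carries 14 of the filled points on the right.

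Of the PPAR receptors, their partner RXRA and the target genes ANGPTL4, PDK4 and PLIN2, only PPARG, PPARA and ANGPTL4 were called in the mean of the 4 treatments, all lower. PPARG (ENSG00000132170, chromosome 3, 12287368 to 12434356), which encodes PPARγ, stood at 22.98, 22.84 and 18.51 TPM in AE libraries, 25.56, 23.48 and 26.05 in TE libraries, 20.44, 21.94 and 20.27 in SE libraries and 22.54, 22.67 and 25.74 in HTyr libraries, against 35.08, 36.12 and 40.01 TPM in untreated libraries. All 12 treated libraries lay below the 3 untreated ones. On the log2 scale the differences came to -0.78 (AE), -0.56 (TE), -0.81 (SE) and -0.64 (HTyr) (standard error of each 0.09, adjusted p from limma 4.75e-06 to 0.000368). The TE change did not reach 1.5-fold, and the HTyr call ended without the third untreated library (-0.58). In a bulk culture, fewer cells expressing a gene and less of its RNA in each cell cannot be told apart. PPARA (ENSG00000186951, chromosome 22, 46150521 to 46243755), which encodes PPARα, stood at 6.93, 4.74 and 9.83 TPM in AE libraries, 7.92, 6.42 and 7.50 in TE libraries, 5.57, 6.56 and 4.65 in SE libraries and 5.57, 5.63 and 5.53 in HTyr libraries, against 10.89, 8.36 and 10.99 TPM in untreated libraries. AE libraries overlapped untreated ones, whereas those of TE, SE and HTyr lay below them. PPARA was called lower with SE (-0.80, adjusted p 0.00415) and HTyr (-0.79, adjusted p 0.00656), and its call in the mean of the 4 (-0.63, adjusted p 0.0043) ended without the second AE library or without the first or the third untreated one (-0.57 in each).

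PPARD, which encodes the widely expressed PPARδ, stood at 17.50, 14.11 and 17.99 TPM in AE libraries, 17.52, 18.21 and 17.33 in TE libraries, 15.84, 12.74 and 15.55 in SE libraries and 15.86, 16.07 and 16.82 in HTyr libraries, against 16.18, 18.09 and 17.69 TPM in untreated libraries. RXRA, the partner receptor, stood at 13.61, 14.27 and 15.01 TPM in AE libraries, 13.92, 12.61 and 13.94 in TE libraries, 11.54, 14.41 and 14.37 in SE libraries and 12.03, 13.65 and 12.97 in HTyr libraries, against 12.11, 10.79 and 12.88 TPM in untreated libraries. Neither was called. The SE libraries of PPARD lay below the untreated ones and the AE libraries of RXRA above them, while the other groups overlapped untreated cells. The 95% intervals of their mean log2 fold changes were -0.26 to 0.08 (PPARD) and 0.01 to 0.34 (RXRA). The summed level of the 3 receptors and RXRA was 53.4 to 64.9 TPM in treated libraries and 73.4 to 81.6 TPM in untreated ones. Most of the lower sum came from PPARG, the most abundant of these genes in every library, and RXRA did not fall.

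ANGPTL4 (ENSG00000167772, chromosome 19, 8363289 to 8374370), a secreted inhibitor of lipoprotein lipase and a PPAR target, stood at 4.38, 4.14 and 3.99 TPM in AE libraries, 2.83, 3.56 and 3.47 in TE libraries, 2.89, 3.16 and 4.57 in SE libraries and 4.10, 6.14 and 6.09 in HTyr libraries, against 7.65, 6.42 and 5.30 TPM in untreated libraries. AE, TE and SE libraries lay below all untreated ones and HTyr libraries overlapped them. ANGPTL4 was called lower with TE (-0.87, adjusted p 0.00233) and SE (-0.79, adjusted p 0.00237), with -0.56 and -0.23 and no call with AE and HTyr. Its call in the mean of the 4 (-0.61, adjusted p 0.00292) ended with a pseudocount of 1 (-0.56), without the first HTyr library (-0.57) and without the first untreated library (-0.49). PDK4, the kinase that shuts pyruvate out of oxidation when fatty acids are burned, stood at 0.98, 1.29 and 1.11 TPM in AE libraries, 1.09, 1.23 and 1.49 in TE libraries, 1.11, 1.11 and 1.59 in SE libraries and 1.09, 0.91 and 1.29 in HTyr libraries, against 1.23, 0.89 and 1.59 TPM in untreated libraries. These values overlapped throughout, with a mean log2 fold change of -0.03 (95% interval -0.37 to 0.32). PLIN2, a lipid droplet coat protein, stood at 15.08, 15.51 and 12.95 TPM in AE libraries, 15.21, 12.91 and 15.46 in TE libraries, 17.18, 18.71 and 21.58 in SE libraries and 15.23, 14.80 and 17.43 in HTyr libraries, against 12.56, 12.56 and 14.03 TPM in untreated libraries. SE libraries were all above untreated ones (0.53, adjusted p 0.000802, under 1.5-fold), and no treatment gave a call. CPT1A, likewise a PPAR target, was described with the carnitine shuttle.

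**Figure D4:**
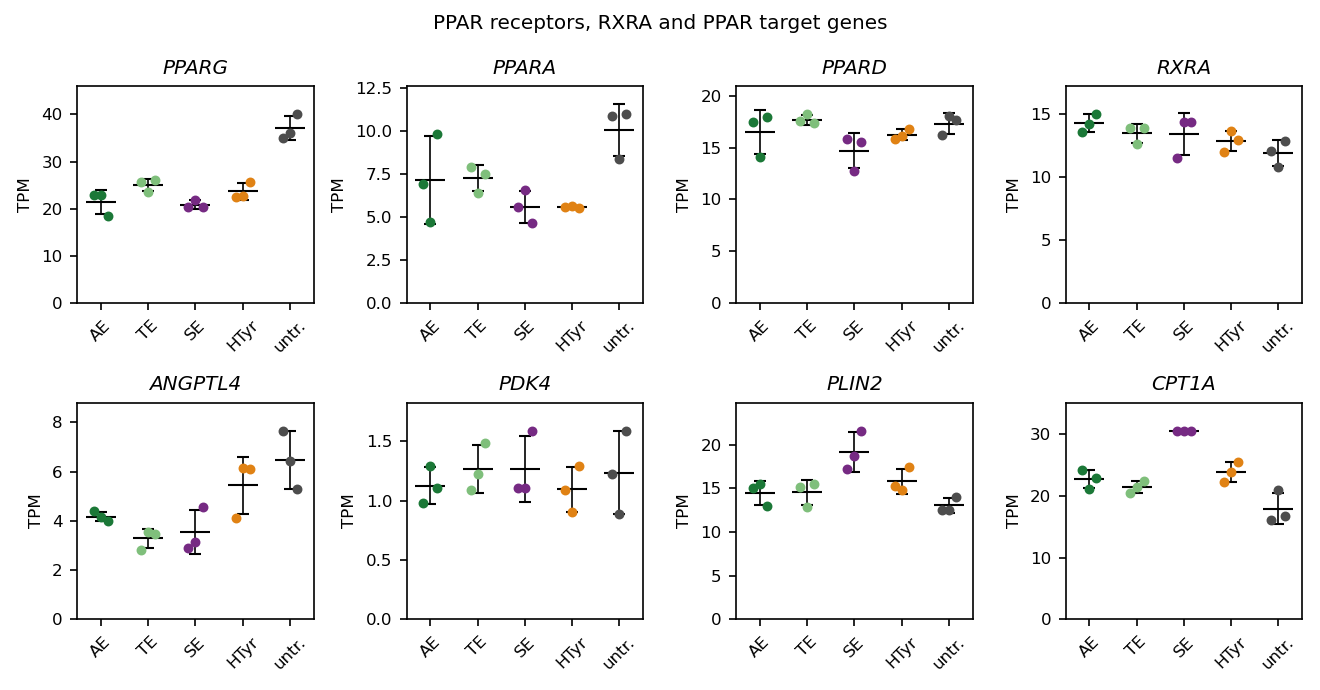
TPM of PPARG, PPARA, PPARD, RXRA and of the PPAR target genes ANGPTL4, PDK4, PLIN2 and CPT1A in each library (points) of AE, TE, SE, HTyr and untreated cells, with group means and SD (n = 3 libraries each). PPARG lies below untreated cells in all 12 treated libraries, PDK4 overlaps in every group, and the 3 SE libraries of CPT1A lie at 30.5 to 30.6 TPM.

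Comparisons between treatments ask whether the extracts differed from the pure compound and from each other. With AE against HTyr (background 1.34%) and TE against HTyr (background 0.705%) limma called 0 members, with 7 and 5 members at an unadjusted p under 0.05, and AE against TE gave 0 as well, with 3 such members (background 0.0873%). Counts at an unadjusted p under 0.05 were not made over all genes, so no background stands beside them. At any fold and an adjusted p under 0.05 (limma), 2 members were higher with AE than with HTyr (all genes 8.06%). Under median-ratio scaling 0 were. The intervals were wide for some genes, such as ANGPTL4, and narrower for others, such as ACSL5. For ANGPTL4, TE minus HTyr was -0.64 in log2 (95% interval -1.03 to -0.24, adjusted p 0.0754), and for ACSL5 it was 0.16 (95% interval 0.03 to 0.29).

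With SE against HTyr 5 members were called higher and 0 lower (background 4.97% and 2.38%). ACSL3 differed most, with 76.5 to 78.4 TPM in SE libraries and 42.1 to 48.1 TPM in HTyr libraries (log2 difference 0.77, 95% interval 0.64 to 0.91, adjusted p 2e-06). ABCD3 had 35.5 to 42.3 TPM with SE and 22.7 to 26.6 TPM with HTyr (0.67, adjusted p 3.4e-05). ACADM had 63.8 to 66.9 TPM with SE and 37.6 to 47.0 TPM with HTyr (0.61, adjusted p 0.000285). In these 3 genes the SE and HTyr libraries did not overlap. PEX3 (0.69) and HSD17B4 (0.59) were the other calls. The median of all genes shifted by -0.13 in this comparison under median-ratio scaling, and relative to that shift ACSL3 was the only one of the 5 that kept its call, while ECI1 and ANGPTL4 became called lower, which made 1 higher and 2 lower. Under quantile normalization the same 3 genes were called.

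For the members called with all 4 treatments, SE minus HTyr was 0.18 for CPT2 (95% interval -0.07 to 0.43), 0.27 for AMACR (-0.20 to 0.73) and 0.12 for ACSL5 (-0.01 to 0.25), and for PPARG it was -0.17 (-0.37 to 0.02), none of them called.

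**Figure D5:**
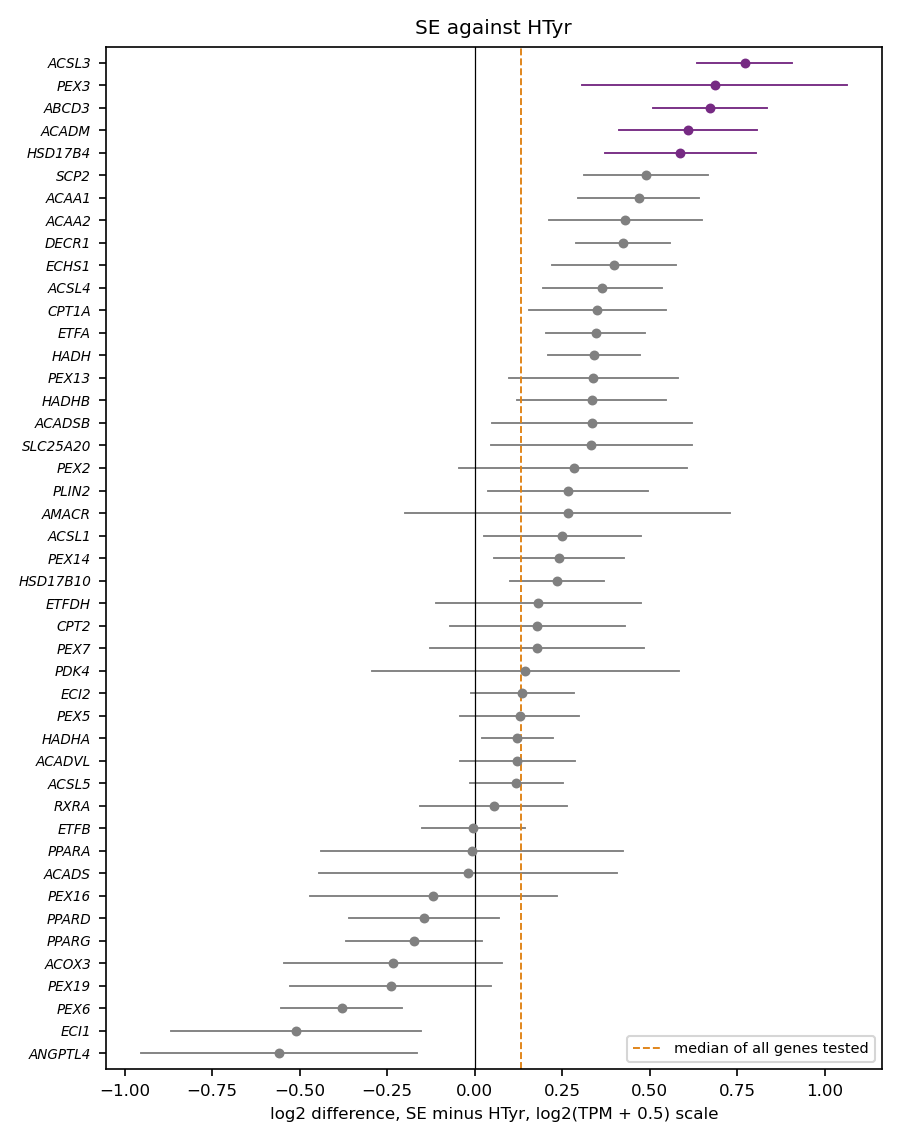
Log2 difference SE minus HTyr on the log2(TPM + 0.5) scale for the 45 members, ordered by size, with 95% intervals (lines) from limma. Purple marks the 5 members called higher with SE, grey those not called, and the dashed line the median of all genes tested at 0.13.

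SE gave the highest mean of the 4 treatments in 29 of the 45 members and the lowest in 9. The same count was not made over all genes, so it is not known whether these shares are particular to the members. Of all genes tested, SE also had the largest share called higher than untreated cells (17.0%). Against AE, 1 member was called, ECI1, which was lower with SE (-0.62, adjusted p 0.0197, background 2.78% lower and 4.72% in either direction), and the call ended without the first or second AE library or the first SE library. Against TE, ABCD3 (0.61) and ACSL3 (0.59) were called higher (background 4.70%) and ECI1 lower (-0.78, adjusted p 0.00334, background 3.66%). Both higher calls were lost under median-ratio scaling, under quantile normalization and without the second SE library. The ACSL3 call was lost in 8 of 24 alternatives. ECI1 had 42.1 to 60.2 TPM with SE, 76.1 to 87.2 TPM with AE and 75.6 to 105.1 TPM with TE, with no overlap between SE and the other extracts. At any fold and an adjusted p under 0.05, 14 members were higher and 2 lower with SE than with AE (all genes 9.81% and 7.71%), and 18 were higher and 2 lower than with TE (all genes 17.2% and 9.24%).

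Other genes of the pathway were taken from a list of 67 tested genes. In the mean of the 4 treatments 10 were called higher and 4 lower. Of 29 further peroxisome genes 8 were called higher and 0 lower (limma, 18 at an unadjusted p under 0.05 in either direction), of 19 further genes of fatty acid oxidation 1 was higher and 0 lower (8 at an unadjusted p under 0.05), and of 19 PPAR coactivators, partners and targets 1 was higher and 4 lower, beside backgrounds of 10.4% higher and 7.43% lower. These counts include PEX11G (higher) and PLIN4 (lower), which each passed the filter only through the group where it was higher. The counts at an unadjusted p under 0.05 were not made over all genes, so they have no background. The largest called rises were those of FABP5, PEX11G and ACOX2. Of the largest called falls, those of MGLL, PLIN4 and NCOR1, the PLIN4 one is a description only, since that gene reached 1 TPM in the 3 untreated libraries alone and a lower treated level was fixed by the filter. FABP5, a fatty acid binding protein with many pseudogenes that may share its reads, had 294 to 622 TPM in treated and 173 to 201 TPM in untreated libraries (1.12, adjusted p 2.93e-09). PEX11G, a peroxin of organelle division, had 1.44 to 3.86 TPM in treated and 0.25 to 1.29 TPM in untreated libraries (log2 difference 1.04). It reached 1 TPM in 13 libraries, among them all treated ones, and passed the filter only through these, so its rise is a description only. ACOX2, the oxidase of branched chains and bile acid intermediates, had 6.47 to 11.0 TPM in treated and 1.82 to 6.37 TPM in untreated libraries (0.96, adjusted p 0.0027). MGLL, which releases fatty acids from monoacylglycerol, had 3.09 to 9.14 TPM in treated and 15.3 to 18.65 TPM in untreated libraries (-1.52, adjusted p 1.04e-08). PLIN4, a lipid droplet protein and PPARγ target in fat cells, had 0.38 to 0.77 TPM in treated and 1.89 to 2.67 TPM in untreated libraries (log2 difference -1.32). NCOR1, a corepressor of nuclear receptors, fell by 0.72, with 9.87 to 17.4 TPM in treated and 19.95 to 25.0 TPM in untreated libraries. In FABP5, ACOX2, MGLL and NCOR1, treated and untreated libraries did not overlap (background 15.3% all above and 11.8% all below). Since these genes were picked for their large changes, this adds nothing to their calls. The coactivator PPARGC1A was listed at 0 in 14 libraries and at 0.05 TPM in the third AE library, and its relative PPARGC1B had 3.02 to 4.84 TPM in treated and 5.21 to 5.68 TPM in untreated libraries (-0.51, adjusted p 0.000361, called with AE only). These 2 were named after their values were seen.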

How the data were processed

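RNA-seq libraries of HCT116 cells were made by the authors with a stranded poly(A) kit, 3 for each of the 5 groups. Adapters were clipped with Scythe, ends trimmed with Sickle, reads aligned to GRCh38 with STAR and Ensembl 104 genes quantified with RSEM, as the methods and the submitters' processing notes name them. For these tools the version and any use of strand were not given in the sources used here. TPM values were made by the authors for each library and deposited rounded to 2 decimals, without scaling between libraries. TPM keep no depth, so a count model could not be used and no counting error is known. The authors' own tests used DESeq2 on estimated counts, and their fold changes were not used here.

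All 15 columns of the table were used, and no 2 libraries held identical values (0 identical pairs). Libraries were grouped by their labels and descriptions. Symbols and coordinates came from GENCODE 44 on GRCh38, which named 60463 of the 60664 identifiers. A gene was kept if 3 or more of the 15 libraries had 1 TPM or more (14899 tested, 45765 left out). Values were analysed as log2(TPM + 0.5), a scale that understates the changes of genes at low TPM, with limma 3.58.1 in R 4.3.3, 1 fit of 5 group means, a mean-variance trend, 10 residual and 3.42 prior degrees of freedom, and Benjamini-Hochberg adjustment over all genes tested. A call is an adjusted p under 0.05 with a change over 1.5-fold. The mean of the 4 treatments weights AE, TE, SE and HTyr equally. The fit was tested on simulated data. Sequences are RefSeq promoter windows. Figures were drawn with matplotlib 3.10.9 and tables made with pandas 2.3.3 and numpy 2.4.6 in Python 3.11.15.

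The members and the lists were chosen with earlier results of these data known. Values of every library are given for members called in the mean of the 4 treatments or with at least 2 treatments, for PPARG, PPARA, PPARD, RXRA, PDK4, ANGPTL4, PLIN2, CPT1A and ACOX3, and for up to 3 members with the smallest adjusted p among those called in each direction in AE, TE and SE against HTyr. From the other pathway genes the 3 largest called rises and falls are named. The alternatives were leaving out each library in turn, quantile normalization, median-ratio scaling, TPM without mitochondrially encoded genes, a mean TPM of 5 or more, no low-value filter, a pseudocount of 0.1 or 1, a replicate block and a fit of only the groups compared.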

Additional observations from a re-analysis of the deposited data

How the results depend on the processing

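Of 382 counts of called members recomputed under an alternative, 352 stayed within 1.5 times of the reported count and 30 did not. Under median-ratio scaling and under quantile normalization, 3 members were higher and 3 lower with AE, 3 higher and 2 lower with TE, 3 changed between SE and HTyr and 1 between SE and TE. HTyr gave 5 higher under median-ratio scaling and 5 without mitochondrially encoded genes. AE gave 2 lower with a pseudocount of 0.1, and TE 0 lower at a mean of at least 5 TPM, a filter that removes ANGPTL4. Leaving out each library in turn gave 5 to 8 higher and 1 to 2 lower with AE, 3 to 6 and 1 to 2 with TE, 13 to 17 and 3 to 3 with SE, 3 to 6 and 1 to 3 with HTyr, and 7 to 8 and 1 to 3 in the mean of the 4. Between treatments the ranges were 0 to 1 for TE against HTyr, 3 to 7 for SE against HTyr, 0 to 1 for SE against AE and 2 to 4 for SE against TE, and stayed at 0 for AE against HTyr and AE against TE. Counts moved by over 1.5 times without AE library 1 or 3 or untreated library 2 or 3 (AE, 2 lower), the first TE or second untreated library (TE, 3 higher), the third TE or first untreated library (TE, 2 lower), the first HTyr library (HTyr, 6 higher, and 1 for TE against HTyr), the third untreated library (HTyr, 1 lower), the first untreated library (mean, 1 lower), the second HTyr library (3 for SE against HTyr) and the second AE library (0 for SE against AE). Of the members' log2 fold changes in the mean of the 4 under these alternatives, 1007 kept direction and side of the threshold, 11 lost the call, 0 gained one and 15 changed sign, all in 6 members with no call. These were ECI1 (-0.049 under median-ratio scaling, -0.074 under quantile normalization and -0.085 to 0.077 with a library left out), ACADVL (-0.085 under quantile normalization) and, with a library left out, HSD17B4 (-0.041 to 0.192, negative without the first untreated library), ACSL1 (-0.022 to 0.138, negative without the second untreated library), PEX2 (-0.122 to 0.078, positive without the second untreated library) and PDK4 (-0.178 to 0.116, positive without the third untreated library). With a replicate block the counts were 6 higher and 1 lower with AE, 5 and 1 with TE, 14 and 3 with SE, 3 and 2 with HTyr, and 8 and 3 in the mean, as without it. The replicate numbers were not taken to pair the samples, since deviations of libraries with the same number correlated at -0.21 to 0.26 and those with other numbers at up to 0.28. Causes of these differences were not tested. The unknown depth limits most what can be said of genes near 1 TPM, such as PDK4 and AMACR.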
